A study of Mus musculus with 16 samples.

Results

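The miR-132 and miR-212 cluster was followed as its 4 mature arms, miR-132-3p, miR-132-5p, miR-212-3p and miR-212-5p, in small RNA libraries of the mouse myoblast line C2C12. A member was any entry of the deposited miRNA tables whose name, once a note in parentheses was removed, equals one of these 4 names. All 4 were listed, among 2274 miRNA names. The study set wild-type control cells against cells in which all of miR-1a-1, miR-1a-2 and miR-206 were knocked out (tKO), each in growth medium (GM, proliferating myoblasts) and at day 3 of differentiation in low horse serum (DM3, myotubes). The 4 groups, control GM, tKO GM, control DM3 and tKO DM3, held 4 libraries each, from 2 lines with 2 biological replicates per line. The control lines are cell populations and the tKO lines are clones, so a group has 2 lines rather than 4, and p-values measure the spread between these libraries. All groups, controls included, come from C2C12 cells described as PAX7 negative.

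Mir132 and Mir212 are transcribed together in a single primary RNA whose promoter is a known target of the transcription factor CREB. In neurons the pair is a standard example of activity-induced miRNAs, and miR-132-3p has been studied there for its effect on dendrite growth. The cluster is also known from endothelium, where miR-132-3p acts on Rasa1 mRNA, and from inflammation, where it acts on the mRNA of acetylcholinesterase. A miRNA finds its targets mainly through its seed, bases 2 to 8, and both 3p arms carry the same seed.

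The 4 mature sequences are shown because their seeds decide which arms can share targets. They are from RefSeq on GRCm38.p6, 5′ to 3′, with the seed in capitals.
miR-132-3p: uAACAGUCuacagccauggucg
miR-212-3p: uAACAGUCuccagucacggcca
miR-132-5p: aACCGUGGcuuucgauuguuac
miR-212-5p: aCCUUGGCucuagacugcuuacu
The 3p arms were identical at 17 of 22 positions. Counted from the 5′ end, with the miR-132-3p base first, they differed by A10C, C14U, U17C, U20C and G22A, all outside the seed. No other mature mouse miRNA in the RefSeq table shared bases 2 to 8 with any of the 4 members.

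Both hairpins lie on the plus strand of chromosome 11 in GRCm38.p6, Mir212 at chr11:75173388-75173478 and Mir132 at chr11:75173682-75173747, with 203 bases between them. GENCODE M21 places both inside an intron of 1700016P03Rik (ENSMUSG00000085609.1), a transcript of 3 exons annotated without a protein. The hairpins are shown because several entries counted for a member do not lie on its arm. The mature arms are in capitals, 5p before 3p.
Mir212: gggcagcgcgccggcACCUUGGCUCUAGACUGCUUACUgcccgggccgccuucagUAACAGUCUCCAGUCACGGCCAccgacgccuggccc
Mir132: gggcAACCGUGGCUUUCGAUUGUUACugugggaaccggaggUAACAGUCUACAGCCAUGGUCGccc

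Library totals ran from 112792 to 6543570 reads. Reads in entries under 18 nt made up 1.88% to 6.49% of GM libraries and 2.96% to 18.9% of DM3 libraries, with the highest share in the smallest library, line 1 replicate 1 of tKO DM3. Levels are given as CPM, reads per 1000000 listed reads of the library. Because short or mismatched entries carried much of the signal counted for miR-212, levels are also given for full-length matched reads, those in entries of at least 18 nt with no mismatch. By these, the deleted miR-206-3p had a DM3 median of 27991 CPM in control and 4.36 CPM in tKO, where the highest library was at 62.1 CPM, and miR-1a-3p had one of 33.4 CPM in control and no read in tKO.

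Summed over the 16 libraries, 1316 reads were listed as miR-132-3p, 622 as miR-132-5p, 1403.5 as miR-212-3p and 524 as miR-212-5p. A read that matches several sequences is split between them, hence the fraction. Short or mismatched entries held 10.3% of the reads of miR-132-3p and 10.6% of those of miR-132-5p, but 43.7% of those of miR-212-5p and 95.6% of those of miR-212-3p. That left 1180, 556, 62 and 295 full-length matched reads for miR-132-3p, miR-132-5p, miR-212-3p and miR-212-5p. By these reads miR-132-3p was the most abundant of the 4 in each group, at rank 242 to 276 by mean CPM among 952 to 1125 names detected, and miR-212-3p the least, at rank 540 to 662.

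**Figure D1:**
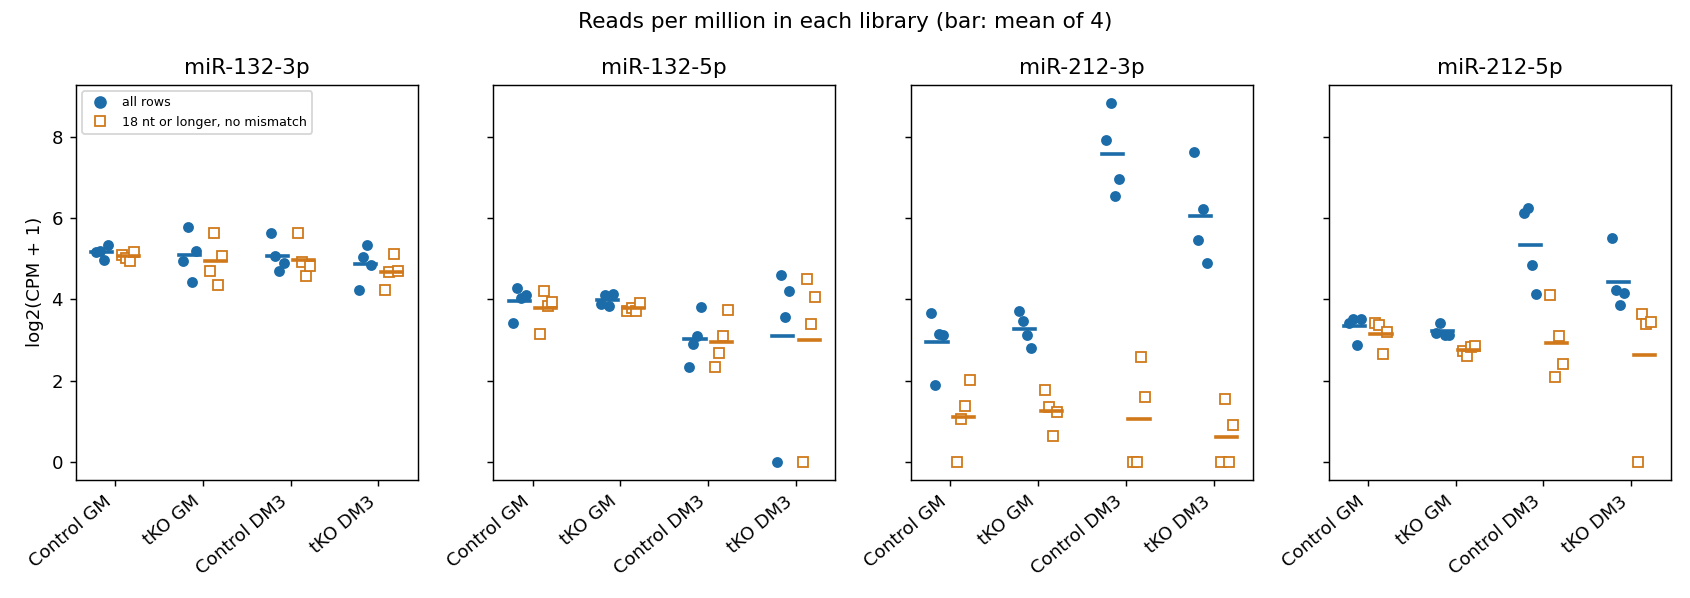
Level of each member in the 16 libraries on a log2(CPM + 1) scale, with circles for all listed reads, open squares for full-length matched reads and bars for the mean of the 4 libraries of a group. The circles of miR-212-3p in DM3 lie above all its GM circles, while its squares stay at or below 5.02 CPM in every library.

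miR-132-3p, the arm with most of the known targets, was at a similar level in the 4 groups. Values per library are given in the order line 1 replicates 1 and 2, then line 2 replicates 1 and 2. In control cells it was at 35.1, 35.2, 30.0 and 39.6 CPM in GM and at 48.4, 32.4, 25.1 and 28.7 CPM in DM3. In tKO cells it was at 29.9, 54.1, 20.5 and 35.5 CPM in GM and at 17.7, 31.7, 39.4 and 28.0 CPM in DM3. All 4 ranges overlapped, and the group means lay between 29.2 and 35.02 CPM. The level in line 1 replicate 1 of tKO DM3 rests on 2 reads, below the floor of 3 reads (26.6 CPM). In such bulk samples fewer cells of a type and less RNA per cell cannot be told apart.

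miR-132-5p, the other arm of the hairpin, was lower than miR-132-3p in all 16 libraries. It was at 9.76, 18.5, 15.3 and 16.2 CPM in control GM and at 13.7, 16.3, 13.3 and 16.5 CPM in tKO GM. In control DM3 it was at 4.03, 6.48, 7.54 and 13.03 CPM, from 1, 6, 3 and 39 reads. The ranges of control GM and control DM3 overlapped. The 3 lowest DM3 libraries lay below all GM ones but rest on few reads, and the one with 1 read is under its floor of 3 reads (12.1 CPM), which is above the lowest GM value. In tKO DM3 it was at 0, 23.04, 10.9 and 17.4 CPM, where the 0 comes from the library of 112792 reads and allows up to 26.6 CPM.

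Reads listed as miR-212-3p were at 11.7, 2.72, 7.90 and 7.64 CPM in control GM and at 242, 456, 93.0 and 124 CPM in control DM3. In tKO they were at 12.1, 9.95, 7.77 and 6.01 CPM in GM and at 195, 43.2, 73.3 and 28.8 CPM in DM3. The GM and DM3 ranges did not overlap in either genotype. The share of all names whose ranges did not overlap is not given here, so this only describes these libraries. Within DM3 the ranges of control and tKO overlapped, since line 1 replicate 1 of tKO exceeded both line 2 libraries of control.

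Nearly all of these DM3 reads came from a single entry of 13 nt with 1 mismatch. This sequence is shown because it carries the differentiation change counted under miR-212-3p. The capital marks the mismatch, G6A, with the hairpin's base first and the position counted from the 5′ end of the entry.
Most counted miR-212-3p entry: gcccgAgccgcct
It aligns to bases 39 to 51 of the Mir212 hairpin, between the arms, and none of its bases lies inside miR-212-3p, whose arm is at bases 56 to 77. It held 1286 of the 1403.5 reads: 47 in control GM, 61 in tKO GM, 869 in control DM3 and 309 in tKO DM3. All of them carried 2 further 3′ bases that do not match the hairpin, and in 87.3% these were GG, so that the reads were 15 nt long.

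The 13 bases occur without mismatch in 6 of 141767 GENCODE M21 transcripts, from the genes Foxe3, Gm42418, Ihh, Mfsd5 and Phc2. With GG added, the 15 bases occur in 1 transcript, that of Gm42418, a noncoding RNA gene known to overlap the ribosomal RNA repeat. Whether the reads came from that gene was not tested.

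**Figure D2:**
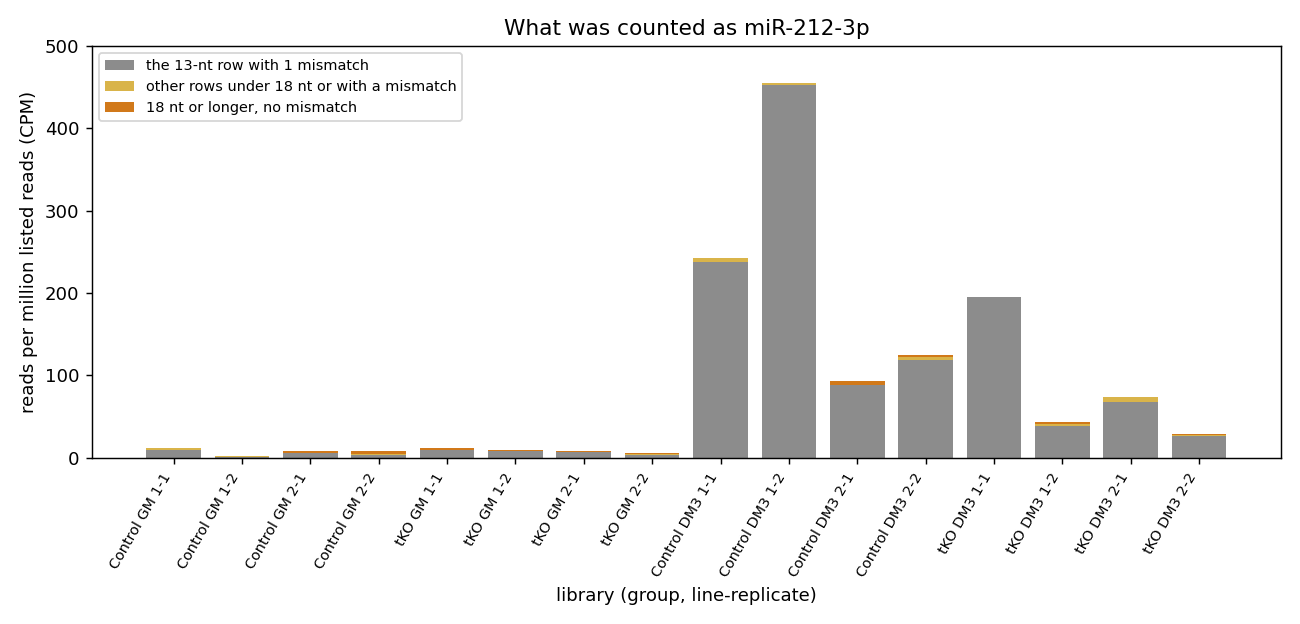
Reads counted as miR-212-3p in each library in CPM, stacked by kind of entry. The 13-nt entry makes up 88.1% to 100% of the bar in the 8 DM3 libraries, and the full-length matched part is at or below 5.02 CPM in every library.

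Without the 13-nt entry, miR-212-3p was at 1.95, 1.27, 2.11 and 4.13 CPM in control GM and at 4.03, 3.24, 5.02 and 5.35 CPM in control DM3, the latter from 1, 3, 2 and 16 reads. In tKO it was at 3.23, 2.30, 0.56 and 2.34 CPM in GM and at 0, 5.12, 5.43 and 2.86 CPM in DM3. The ranges of GM and DM3 overlapped in both genotypes. Full-length matched reads of miR-212-3p numbered 29 in control GM, 15 in tKO GM, 8 in control DM3 and 10 in tKO DM3, and 2 of 4 libraries of each DM3 group had none. In an edgeR fit without the filter on low counts, these few reads gave a log2 fold change from GM to DM3 of -0.12 ± 0.78 (SE) in control and -0.46 ± 0.79 (SE) in tKO, and neither passed. The floor of 3 reads was at 0.660 to 26.6 CPM in DM3, so small differences in full-length miR-212-3p were not detectable at this depth.

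Reads listed as miR-212-5p were at 9.76, 10.5, 6.32 and 10.4 CPM in control GM and at 68.6, 74.5, 27.6 and 16.4 CPM in control DM3. In tKO they were at 8.08, 9.70, 7.77 and 7.68 CPM in GM and at 44.3, 17.6, 13.6 and 16.7 CPM in DM3. As for miR-212-3p, the GM and DM3 ranges did not overlap in either genotype, again without the share of all names. Short or mismatched entries held 16.8% of its reads in control GM, 27.0% in tKO GM, 84.2% in control DM3 and 39.7% in tKO DM3.

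A pair of these short entries is shown to set them beside the arm. Each spans the end of the 5p arm and the loop, with 6 bases inside the arm, and the capital marks the mismatch to the hairpin, T6C in the first and A4T in the second.
Second most counted miR-212-5p entry: cttacCgcccgggcc
Another short miR-212-5p entry: cttTctgcccgggcc
The first held 3 reads in control GM and 52 in control DM3, and the second 1 and 26. Full-length matched reads leave both out and put miR-212-5p at 9.76, 9.25, 5.27 and 8.10 CPM in control GM and at 16.1, 3.24, 7.54 and 4.34 CPM in control DM3. In tKO these reads were at 5.65, 5.10, 6.11 and 6.17 CPM in GM and at 0, 11.5, 9.50 and 9.91 CPM in DM3. On this count the ranges of GM and DM3 overlapped in both genotypes.

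Differentiation was compared within each genotype in one edgeR quasi-likelihood fit over the 16 libraries and 807 names that passed a filter on low counts, with Benjamini-Hochberg adjusted p-values and a threshold of 0.05. All 4 members passed the filter. In control cells the reads of 2 of the 4 members rose from GM to DM3, where 15.9% of all names rose and 27.6% changed in either direction. miR-212-3p reads had a log2 fold change of 4.61 ± 0.65 (SE) with an adjusted p of 7.45e-05, and miR-212-5p reads 1.84 ± 0.43 (SE) with an adjusted p of 0.00343. Without line 1 replicate 2 of control DM3, which held the highest values, miR-212-3p had 3.91. The call of miR-212-5p ended with replicate 1 alone (1.95, edgeR adjusted p = 0.0980) and with replicate 2 alone (1.72, edgeR adjusted p = 0.0540). Of the 128 names that rose, 98 (76.6%) had over 50% of their reads in short or mismatched entries, against 46.0% of all names tested. Scaling by total counts in place of TMM turned the split of 128 higher and 95 lower names into 153 and 62, and moved the median of all names from 0.02 to 0.39.

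The same comparison gave no call for the miR-132 arms. miR-132-3p had a log2 fold change of -0.49 ± 0.34 (SE, adjusted p = 0.318, edgeR) and miR-132-5p of -1.11 ± 0.49 (SE, adjusted p = 0.103, edgeR). Without line 2 replicate 2 of control DM3, miR-132-5p had -1.82 and passed, with an adjusted p of 0.0303. It also passed with blocks for replicate and line together, at -1.26 (edgeR adjusted p = 0.0445).

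In tKO cells the reads of 1 of the 4 members, miR-212-3p, rose from GM to DM3, where 11.4% of names rose and 19.7% changed in either direction. The log2 fold change was 2.75 ± 0.61 (SE) with an adjusted edgeR p of 0.00365, and the call ended with replicate 2 alone (2.15, edgeR adjusted p = 0.0580). miR-212-5p had 0.97 ± 0.44 (SE, adjusted p = 0.138), miR-132-3p -0.38 ± 0.34 (SE, adjusted p = 0.478) and miR-132-5p -0.16 ± 0.47 (SE, adjusted p = 0.866). With total-count scaling 109 names were higher and 43 lower, in place of 92 and 67, the median moved from 0.01 to 0.24, and miR-132-5p turned to 0.05.

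Whether differentiation acted differently in the genotypes was tested as an interaction, for which 0 of 4 members and 0% of names passed in edgeR. miR-212-3p had -1.86 ± 0.83 (SE, adjusted p = 0.937) and miR-212-5p -0.87 ± 0.62 (SE, adjusted p = 0.937). At an unadjusted p under 0.05, 1 member and 37 names stood out in edgeR, and DESeq2 called 0 members and 0 names. For miR-212-3p single libraries moved the interaction from -2.36 (adjusted p = 0.147), without line 1 replicate 1 of tKO DM3, to -1.18, without line 1 replicate 2 of control DM3. It was -0.25 with replicate 1 alone and -3.29 with replicate 2 alone (edgeR adjusted p = 0.0868). With the replicates of each line summed it was -3.04 (edgeR adjusted p = 0.0815).

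Counted by full-length matched reads, 451 names passed the filter, among them miR-132-3p, miR-132-5p and miR-212-5p but not miR-212-3p. By edgeR 0 of these 3 changed in any of the 5 comparisons, and 0 had an unadjusted p under 0.05; DESeq2 was not run on these reads. Of all names, 30.8% changed between GM and DM3 in control (13.1% higher and 17.7% lower) and 27.1% in tKO (14.9% higher and 12.2% lower), and 0% passed for the interaction, where 19 had an unadjusted p under 0.05. In control cells miR-212-5p had a log2 fold change of -0.46 ± 0.45 (SE, adjusted p = 0.493), with the sign opposite to that over all reads. miR-132-3p had -0.12 ± 0.29 (SE, adjusted p = 0.785) and miR-132-5p -0.69 ± 0.43 (SE, adjusted p = 0.253). In tKO cells miR-132-3p had -0.33 ± 0.29, miR-132-5p 0.17 ± 0.40 and miR-212-5p 0.68 ± 0.39 (SE, lowest adjusted p = 0.216).

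**Figure D3:**
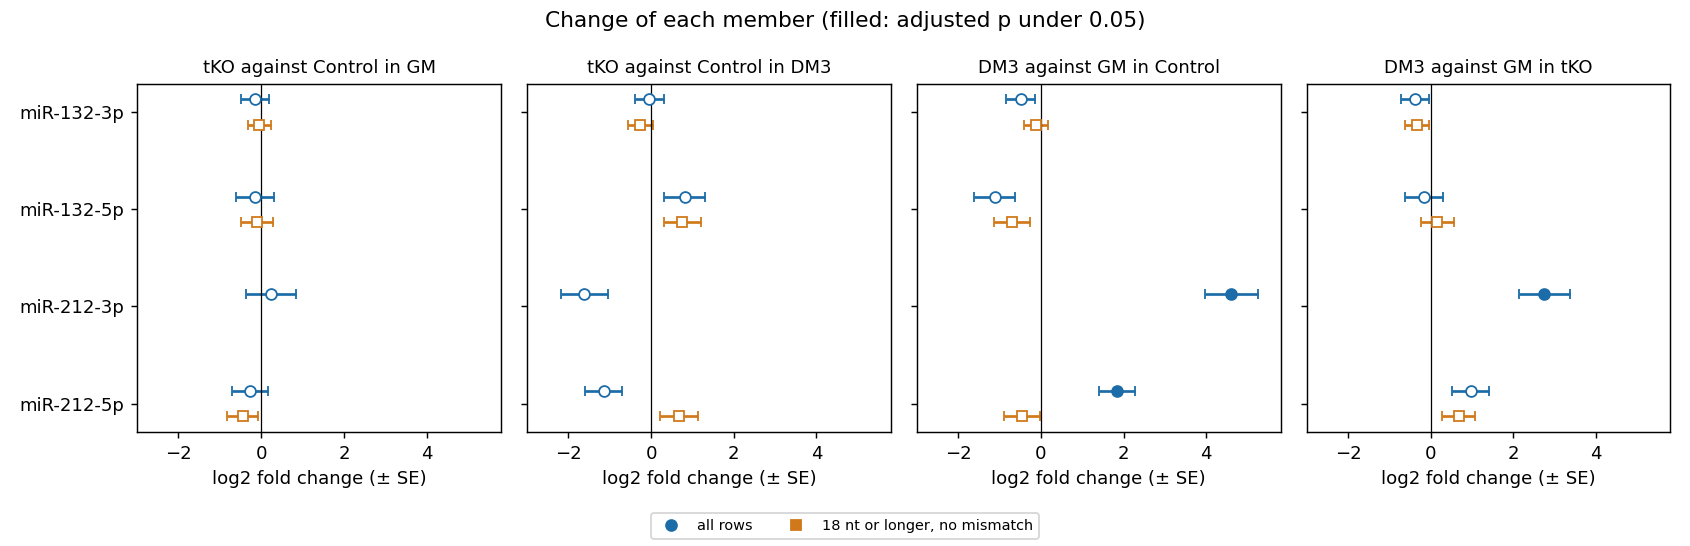
Log2 fold change with its standard error for each member in the 4 group comparisons, circles for all listed reads and squares for full-length matched reads, filled where the adjusted p is under 0.05. The 3 filled symbols are circles of miR-212-3p and miR-212-5p in the comparisons of DM3 with GM, and miR-212-3p has no squares because too few reads were left to test.

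The knockout comparison asked whether cells without miR-206 and miR-1a differed in the cluster in either medium. In GM 0 of 4 members passed in edgeR, where 1.12% of names did; 0 had an unadjusted p under 0.05, and DESeq2 called 0. miR-132-3p had a log2 fold change of -0.15 ± 0.33 (SE), miR-132-5p of -0.14 ± 0.45, miR-212-3p of 0.25 ± 0.61 and miR-212-5p of -0.28 ± 0.43. With total-count scaling miR-132-3p turned to 0.0033, and without line 1 replicate 2 of control GM miR-212-3p turned to -0.07.

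In DM3 0 of 4 passed in edgeR, where 0.867% of names did (7 names, and 53 without line 1 replicate 1 of tKO DM3); 2 members had an unadjusted p under 0.05, and DESeq2 called 0. Those 2 were the miR-212 arms, with log2 fold changes of -1.61 ± 0.57 (SE, adjusted p = 0.279) for miR-212-3p and -1.14 ± 0.44 (SE, adjusted p = 0.353) for miR-212-5p. Without line 1 replicate 1 of tKO DM3, miR-212-3p had -2.09 and passed, with an adjusted p of 0.0341. Without line 1 replicate 2 of control DM3 it had -0.90 (edgeR adjusted p = 0.736). miR-132-3p had -0.04 ± 0.35 (SE) and miR-132-5p 0.81 ± 0.50 (SE). Over leave-outs miR-132-5p ran from 0.59, without line 1 replicate 2 of tKO DM3, to 1.56, without line 2 replicate 2 of control DM3. Its lowest edgeR adjusted p among these was 0.175.

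For miR-212-3p in DM3 the replicate numbers differed. With replicate 1 alone the value was -0.09 (edgeR adjusted p = 0.984) and with replicate 2 alone -3.10 (adjusted p = 0.0246). With the replicates of each line summed it was -2.72 (adjusted p = 0.00864). With replicate 2 alone and with lines summed many more of all names passed too, as the closing section gives. The values of miR-212-3p are over reads of which 99.1% in control DM3 and 97.1% in tKO DM3 were in short or mismatched entries. Full-length matched reads without the filter gave -0.67 ± 0.89 (SE, edgeR adjusted p = 0.824). The share of a library's reads in entries under 18 nt was highest in the 3 DM3 libraries with the highest CPM of miR-212-3p. It was 12.8% and 9.58% in line 1 of control and 18.9% in line 1 replicate 1 of tKO. In replicate 2 it was 12.8% and 4.76% in control against 4.799% and 2.96% in tKO, and in replicate 1 it was 9.58% and 6.13% against 18.9% and 4.38%. Its part in the genotype difference was not tested.

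By full-length matched reads 3.33% of names passed in GM and 4.43% in DM3. miR-132-3p had -0.05 ± 0.28 (SE) in GM and -0.26 ± 0.31 (SE) in DM3, and miR-132-5p -0.10 ± 0.39 and 0.75 ± 0.45. miR-212-5p had -0.45 ± 0.38 (SE) in GM and 0.68 ± 0.46 (SE, adjusted p = 0.435) in DM3, again opposite in sign to the DM3 value over all reads.

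Ratios between members were taken within each library, with 0.5 reads added to each count, so that a ratio with a count of 0 moves with depth. They were tested over 4 against 4 libraries by exact permutation (two-sided), whose smallest p is 0.0286, with adjustment over 12 tests. The log2 ratio of miR-132-5p to miR-132-3p was -1.23 ± 0.38 in control GM, -1.13 ± 0.45 in tKO GM, -2.001 ± 0.84 in control DM3 and -1.31 ± 0.89 in tKO DM3 (SD, n = 4). The lowest exact p of its 4 comparisons was 0.143 (adjusted 0.286).

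The log2 ratio of miR-212-3p to miR-132-3p over all reads was -2.35 ± 0.93 in control GM, 2.503 ± 0.88 in control DM3, -1.90 ± 0.67 in tKO GM and 1.14 ± 1.40 in tKO DM3 (SD, n = 4). DM3 against GM gave the smallest exact p, 0.0286, in both genotypes, with an adjusted p of 0.0857 that misses the threshold. The difference in tKO was 3.04. It was 2.36 without line 1 replicate 1 of tKO DM3 and 3.40 without line 2 replicate 2 of tKO DM3. By full-length matched reads the ratio was -4.34 ± 0.74, -4.00 ± 1.63, -4.26 ± 0.74 and -4.06 ± 1.44 in the same order (SD, n = 4), with an exact p of 0.771 in control and 0.914 in tKO. In 2 of 4 libraries of each DM3 group these ratios rest on 0 reads of miR-212-3p. They were -2.32 from 0 and 2 reads in line 1 replicate 1 of tKO DM3, and -5.78 from 0 and 27 reads in line 1 replicate 2 of control DM3.

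The log2 ratio of miR-212-5p to miR-212-3p over all reads differed from GM to DM3 by -2.70 in control and -1.56 in tKO. Its means were 0.45 ± 1.03 in control GM, -2.25 ± 0.60 in control DM3, -0.062 ± 0.38 in tKO GM and -1.62 ± 0.72 in tKO DM3 (SD, n = 4). Both differences had the smallest exact p, 0.0286, and an adjusted p of 0.0857 that misses the threshold. Without the 13-nt entry both changed sign, to 1.00 in control and 0.20 in tKO, with the short or mismatched entries of miR-212-5p still counted. By full-length matched reads the difference was -0.47 in control (exact permutation p = 0.543) and 0.49 in tKO (exact permutation p = 0.629), so only that in tKO changed sign.

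Of the 1242 full-length matched reads of both 3p arms, miR-212-3p made up 4.99% (95% Wilson interval 3.91% to 6.35%). This share was 5.74% in control GM, 4.02% in tKO GM, 5.84% in control DM3 and 4.41% in tKO DM3. Not all of these reads carry the common seed, since only 1142 of the 1180 miR-132-3p reads started at the annotated first base. Reads listed under the name miR-212-3p made up 86.6% of those listed for both names in control DM3 and 57.1% in tKO DM3, against 14.01% and 17.7% in GM. Most of these DM3 reads are the 13-nt entry, which has no base of the arm and lacks the seed, so these are not shares of seed-bearing reads.

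The first base of the reads also differed between members. Among full-length matched reads, 96.8% of miR-132-3p, 91.9% of miR-212-5p and all 62 of miR-212-3p started at the annotated first base. Of miR-132-5p only 12.1% did, and 87.9% started 1 base later (489 of 556 reads, 95% Wilson interval 85.0% to 90.4%). The later start was at 91.7% in control GM, 85.6% in tKO GM, 82.6% in control DM3 and 86.3% in tKO DM3.

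The hairpin sequence from that start is shown because it has another seed, in capitals.
miR-132-5p from 1 base later: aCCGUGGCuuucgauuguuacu
Bases 2 to 8 of this form are those of 0 of 1679 mature mouse miRNA names in the RefSeq table. The exact annotated miR-132-5p sequence held 17 reads in the 16 libraries (3.06% of full-length matched reads), so a count of exact sequences leaves out most of this arm.

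**Figure D4:**
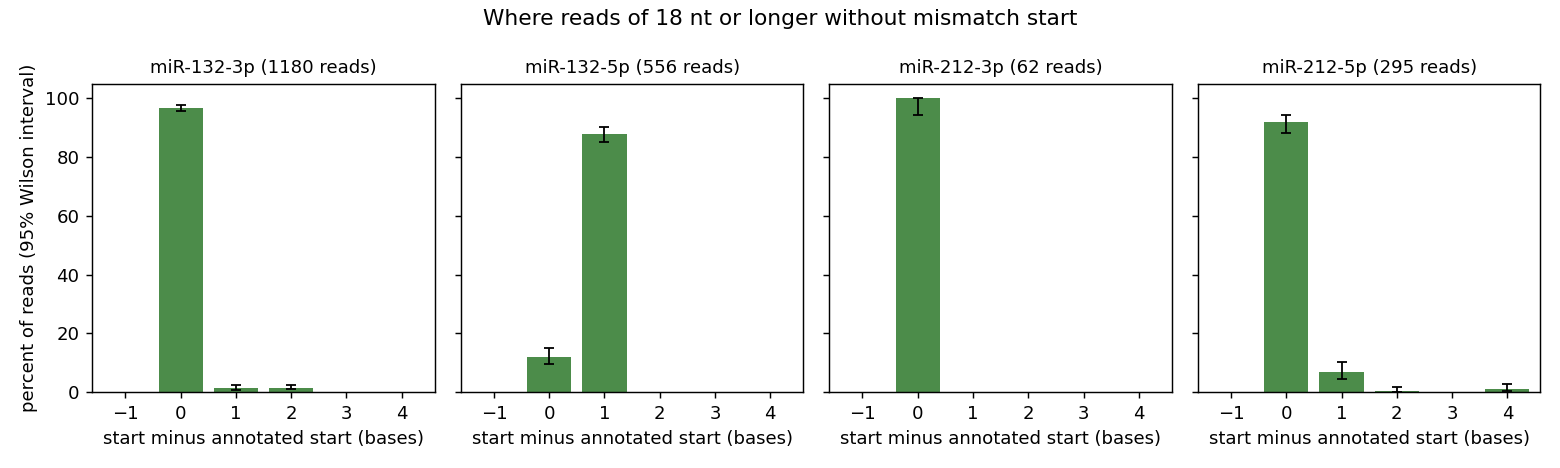
Share of full-length matched reads by their first base, in bases from the annotated start, over the 16 libraries, with 95% Wilson intervals that cover counting error only; 2 reads of miR-132-3p that start 16 bases before it are not drawn. The tallest bar is at 0 for 3 members and at 1 for miR-132-5p.

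At the 3′ end, 60.8% of full-length matched reads of miR-132-3p carried 1 added base that does not match the hairpin, and in 49.2% of the reads this was T, which stands for U in the RNA. Pooled within a group, the share with T was 52.5% for control and 51.7% for tKO in GM, and 46.5% for control and 39.6% for tKO in DM3. These pooled shares weight the deeper replicate 2 libraries most. In GM the share was 35.3% to 39.3% in the 4 replicate 1 libraries and 50.0% to 65.6% in the 4 replicate 2 libraries. From GM to DM3 it was lower in all 4 lines by replicate 2 and higher in all 4 lines by replicate 1, where the DM3 libraries held 2 to 25 such reads. The difference was not tested. Over all names together the share with 1 added T was 6.55% to 8.85% per library.

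Across the 16 libraries, the names whose log2 level over all reads was most like that of miR-132-3p were miR-30c-1-3p (Pearson r = 0.85), miR-23a-5p (0.84), miR-101b-5p (0.83), miR-6952-3p (0.82) and miR-12181-5p (0.82). By full-length matched reads they were miR-320-3p (0.77), miR-331-3p (0.73), miR-744-5p (0.63), miR-3102-3p.2-3p (0.63) and miR-30c-1-3p (0.62), with 1 name in common. Those most like miR-212-3p were miR-1258-3p (0.97), miR-1951 (0.96), miR-1961-5p (0.96), miR-5130-5p (0.96) and miR-6917-3p (0.95). Of these 5, miR-1951 had 0% of its reads in short or mismatched entries and the other 4 had 100%. These correlations describe libraries that share medium, line and depth. Without the smallest library, line 1 replicate 1 of tKO DM3, those with miR-132-3p over all reads were 0.54 to 0.66, those with it by full-length matched reads 0.55 to 0.72, and those with miR-212-3p 0.95 to 0.97.

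Among the members, r over all reads was 0.70 for both miR-132 arms and 0.88 for both miR-212 arms, but -0.55 for miR-132-3p with miR-212-3p. Without the smallest library these were 0.28, 0.87 and -0.50, a choice made after the data were seen. Short or mismatched entries held 95.6% of the reads of miR-212-3p and 43.7% of those of miR-212-5p. The values with miR-212-3p therefore describe mainly such entries and not its arm. By full-length matched reads miR-132-5p with miR-212-5p had 0.73 over 16 libraries and -0.020 without that library, where both had 0 reads. On that count r for both miR-132 arms turned from 0.19 to -0.26, so the values of 0.73 and 0.19 over 16 libraries rest on 1 library.

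Other miRNA hairpins within 1 Mb are Mir22, Mir3971 and Mir6926. miR-22-3p, an abundant miRNA known in heart and skeletal muscle, was at 15601 ± 4647 CPM in control GM and 12884 ± 5332 CPM in control DM3 (SD, n = 4). Neither it nor miR-22-5p was called in any of the 4 group comparisons. Both arms of Mir6926 stayed under the filter, and miR-3971 had no reads.

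Of 13 miRNAs linked to neuronal activity or to CREB, 6 were abundant enough to test. From GM to DM3, edgeR called 0 of them in either genotype over all reads, with a median log2 fold change of 0.10 in control, against 0.02 over all names, and of 0.72 in tKO, against 0.01. Of all names 27.6% and 19.7% were called in these comparisons. miR-9-5p, a miRNA of neural progenitors, was lower in tKO, with a log2 fold change of -3.87 ± 0.54 (SE, adjusted p = 0.000222) in GM and -2.35 ± 0.52 (SE, adjusted p = 0.0330) in DM3, where 1.12% and 0.867% of names passed. By full-length matched reads 4 were tested, with a median of -0.45 in control, against -0.14 over all names, and of 0.29 in tKO, against -0.016. miR-219a-5p then fell from GM to DM3, with -2.98 ± 0.59 (SE) in control and -2.88 ± 0.51 (SE) in tKO, and miR-188-5p rose in tKO, with 1.36 ± 0.35 (SE, adjusted p = 0.00651). On that count 17.7% of names fell in control, and in tKO 12.2% fell and 14.9% rose. Over all reads miR-219a-5p had the opposite sign, with 0.96 ± 0.60 in control and 0.65 ± 0.63 in tKO (SE). miR-124-3p, which marks neurons, had no full-length matched read in any group.

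Of 8 miRNAs linked to endothelium or inflammation, 7 were tested, and 4 fell in control cells from GM to DM3, on both counts of reads. Of all names 11.8% fell in control and 8.3% in tKO over all reads, and 17.7% and 12.2% by full-length matched reads. Over all reads these were miR-222-3p with a log2 fold change of -2.09 ± 0.34, miR-221-3p with -2.06 ± 0.37, miR-155-5p with -1.65 ± 0.44 and miR-21a-5p with -1.42 ± 0.47 (SE). miR-221-3p and miR-222-3p, which share a cluster and act on the cell cycle inhibitor Cdkn1b, also fell in tKO cells, with -1.39 ± 0.36 and -1.75 ± 0.34 (SE). The list's median was -1.42 in control, against 0.02 over all names, and -1.002 in tKO, against 0.01. By full-length matched reads miR-126a-3p, an endothelial miRNA, was lower in tKO in GM (-1.97 ± 0.46, SE, edgeR adjusted p = 0.0177), and miR-155-5p, known from inflammation, was higher in tKO in DM3 (1.44 ± 0.40, SE, edgeR adjusted p = 0.0453), where 3.33% and 4.43% of names passed. Over all reads these had -1.49 ± 0.52 (SE, edgeR adjusted p = 0.282) and 1.37 ± 0.44 (SE, edgeR adjusted p = 0.212).

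The 6 skeletal muscle markers summed to 990 to 1491 CPM in control GM and 21669 to 55628 CPM in control DM3 by full-length matched reads. In tKO they summed to 118 to 223 CPM in GM and 234 to 1210 CPM in DM3. These 6 include the deleted miR-206-3p and miR-1a-3p, so the knockout itself lowers the tKO sums. The other 4 markers summed to 121 to 203 CPM in control GM, 118 to 210.3 CPM in tKO GM, 1682 to 2888 CPM in control DM3 and 234 to 1204 CPM in tKO DM3. In control DM3 the means were 1338 CPM for miR-133a-3p, 458 for miR-133b-3p, 60.8 for miR-486a-5p and 262 for miR-486b-5p. In tKO against control in DM3 the miR-133 arms were lower and passed in edgeR (-2.17 ± 0.59 and -2.46 ± 0.50, SE). miR-486a-5p (-0.39 ± 0.30) and miR-486b-5p (-0.72 ± 0.32, SE) did not pass. Whether the deletion itself lowers the miR-133 arms was not tested. The 2 endothelial markers, miR-126a-3p and miR-126a-5p, summed to at most 24.8 CPM in any library, and the 5 blood markers to at most 11.2 CPM, with miR-142a-5p and miR-144-3p at 0 in every group. The 4 neuronal markers summed to 895 to 2626 CPM over the 16 libraries, most of it miR-128-3p. miR-143-3p and miR-145a-5p, used as markers of smooth muscle and fibroblasts, summed to 16969 to 54044 CPM; the part of any of these cell types in the members' levels was not tested.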

How the data were processed

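Small RNA reads of 16 libraries were listed by the authors with unitas, per the file headers, as one table per library of sequences, assigned miRNA names and expected counts, in which a read that matches several sequences is split; the unitas version is not given in the sources used here. The submitters' processing notes name cutadapt 1.15, STAR 2.5.4 and mm10. Expected counts were summed per name; 236 of 2510 names were merged into a mature name, which left 2274, and sums were rounded for tests. CPM is per 1000000 listed reads. Names were filtered with filterByExpr (smallest count 10), which left 807 names, or 451 for entries of at least 18 nt without mismatch, scaled by TMM and tested with edgeR 4.0.16 in R 4.3.3 on all 16 libraries (square root of the common dispersion 0.477), after the script was tested on simulated data. DESeq2 1.42.0 was an alternative. Ratios used log2 of reads plus 0.5 and scipy 1.17.1 under python 3.11.15.

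The members and lists were chosen with earlier results of these data known. Named miRNAs are the members, those with a shared seed or a hairpin within 1 Mb, the 5 names most like each 3p arm among those of at least 10 CPM, up to 4 changed names of each list, and cell type markers. Intervals and floors (3 reads) cover counting error only. The alternatives were 34 other settings, 16 of which leave out 1 library.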

Additional observations from a re-analysis of the deposited data

Results flagged for a closer look

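Among the tKO DM3 libraries, line 1 replicate 1 lay far above the other 3 in miR-212-5p over all listed reads, at 44.3 CPM against 13.6 to 17.6 CPM. The value comes from 5 reads, all in short or mismatched entries, in the smallest library. It was the only such case among 44 groups of values examined, where chance gives about 1 in 20.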

How the results depend on the processing

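Where a cause is not given by the setting's construction, the cause was not tested. Members called from GM to DM3 went from 2 to 0 in control and from 1 to 0 in tKO with full-length matched reads, with exact mature sequences, and with full-length matched reads and a replicate block or no filter. Without the 13-nt entry they were 1 and 0, with replicate 1 alone 1 in control, and with replicate 2 alone 1 and 0. For tKO against control in DM3, 1 member passed in place of 0 with lines summed, with replicate 2 alone, and over leave-outs 0 to 1. Many more names of the whole set were also called in these settings, as the next paragraph gives. miR-212-3p could not be tested with full-length matched reads under the filter, with exact sequences or without the 13-nt entry, nor miR-132-5p with replicate 1 alone. A line block cannot be fitted between genotypes, nor the interaction from 2 groups.

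Names called for tKO against control in GM, 9, were 19 with a looser filter, 15 without one, 15 with full-length matched reads, 2 with replicate 1 alone, 19 by DESeq2, 25 and 35 with full-length matched reads and a replicate block or no filter, and 5 to 16 over leave-outs. In DM3 the 7 were 16, 14, 20, 1, 20, 23 and 22 under the same settings, 4 with only the 2 groups, 13 with exact sequences, 74 with lines summed, 70 with replicate 2 alone and 5 to 53 over leave-outs (53 without line 1 replicate 1 of tKO DM3). From GM to DM3 in control the 223 were 139 with full-length matched reads, 117 with these and no filter, 86 with exact sequences and 85 with replicate 1 alone. In tKO the 159 were 82 with only the 2 groups, 89 with exact sequences and 74 with replicate 2 alone. For the interaction the 0 was 1 with exact sequences, with lines summed, with full-length matched reads and a replicate block or no filter, and 0 to 1 over leave-outs.

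Log2 fold changes with a reversed sign were as follows. For miR-132-3p, tKO against control in GM was 0.0033 with total-count scaling and 0.034 with full-length matched reads and no filter; in DM3 it was 0.10 without a filter, 0.015 with only the 2 groups, 0.014 with names as listed, 0.061 with replicate 1 alone, 0.035 by DESeq2 and -0.21 to 0.17 over leave-outs. Its control change was 0.10 with exact sequences, and its interaction -0.11 with total-count scaling, -0.20 with full-length matched reads, -0.33 with exact sequences, -0.011 with replicate 2 alone, -0.20 and -0.30 with full-length matched reads and a replicate block or no filter, and -0.061 to 0.33 over leave-outs. For miR-132-5p the tKO change was 0.048 with total-count scaling, 0.17 with full-length matched reads, 0.087 with lines summed, 0.23 with replicate 2 alone, 0.035 and 0.023 with full-length matched reads and a replicate block or no filter, and -0.36 to 0.054 over leave-outs. For miR-212-3p, full-length matched reads without a filter gave -0.33 for tKO against control in GM (leave-outs over all reads -0.067 to 0.47), -0.12 for the control change and -0.46 for the tKO change.

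For miR-212-5p, tKO against control in GM was 0.12 with replicate 1 alone. With full-length matched reads, exact sequences, and full-length matched reads with a replicate block or no filter, it had 0.68, 0.55, 0.71 and 0.66 for tKO against control in DM3, -0.46, -0.30, -0.47 and -0.49 for the control change, and 1.13, 1.17, 1.16 and 1.04 for the interaction. Over leave-outs of full-length matched reads, tKO against control in GM ran from -0.28 to 0.19 for miR-132-3p and from -0.24 to 0.025 for miR-132-5p, the control change of miR-132-3p from -0.22 to 0.032 and the tKO change of miR-132-5p from -0.31 to 0.30. Of the log2 ratios, miR-132-5p to miR-132-3p in tKO turned to 0.16 with 2 reads added (leave-outs -0.47 to 0.15), and in GM it ran from -0.075 to 0.29 over leave-outs. miR-212-5p to miR-212-3p without the 13-nt entry was 0.13 between genotypes in GM, -0.68 in DM3, 1.00 in control and 0.20 in tKO, and 0.49 in tKO with full-length matched reads. miR-212-3p to miR-132-3p without it was -0.19 between genotypes in GM.

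Libraries with the same replicate number had a mean r of 0.101 in their deviations from group means and those with different numbers -0.0953 (48 pairs each, 551 names). Single pairs ran from -0.46 to 0.637 and from -0.638 to 0.556. Deviations within a group sum to 0, which ties the means to opposite signs, and an effect of replicate number was not tested by them. The main fit did not pair libraries by number, and a replicate block was fitted as an alternative. With a replicate block no member's call changed, with 4.71 for miR-212-3p and -1.19 (edgeR adjusted p = 0.0633) for miR-132-5p in control; with a line block added, miR-132-5p passed in control (-1.26, edgeR adjusted p = 0.0445). With replicate 1 or 2 alone, which leave fewer libraries, miR-212-5p missed the threshold in control with log2 fold changes of 1.95 and 1.72 against 1.84 (edgeR adjusted p = 0.0980 and 0.0540).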
